A study of Arabidopsis thaliana with 2 samples.

Results

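The CPK genes of Arabidopsis thaliana encode the calcium-dependent protein kinases, numbered CPK1 to CPK34. Members were all protein-coding genes of chromosomes 1 to 5 whose symbol or synonym in the gene table was CPK plus a number, and they came to 34 of 27444 protein-coding genes. Binding of TGA1, a member of the TGA group of bZIP transcription factors, was mapped by chromatin immunoprecipitation with sequencing (ChIP-seq), in which DNA fragments bound by a protein are recovered with an antibody and sequenced. The material was roots of plants with a fusion of TGA1 to the green fluorescent protein, called TGA1-GFP. There was 1 library made with a GFP antibody and 1 made with IgG, an antibody without a named target, both from the same kind of plant. No source used here gives the strain, the promoter that drives the fusion, whether the plants also carry their own TGA1, their age or the nitrogen supply, and both libraries share the fusion.

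A typical CPK protein joins a serine/threonine kinase domain to a calmodulin-like domain that binds calcium through EF hands, with an inhibitory stretch between them. In this way a rise in cytosolic calcium can switch the kinase on without a separate sensor protein. How far each member depends on calcium was not examined here. The family is divided by sequence into subgroups I to IV. In roots, nitrate gives a calcium signal, and CPK10, CPK30 and CPK32 of subgroup III phosphorylate NLP transcription factors such as NLP7, which are then held in the nucleus and switch on nitrate-responsive genes. Other members act in abscisic acid signalling, in immunity, in the control of ion channels and in pollen tube growth.

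The data were 1 list of 8002 peaks with a median width of 434 bp (range 249 to 4997 bp), given by position only. A peak was assigned to a gene when its midpoint lay inside the gene or within 1000 bp of it. With 1 library for each antibody and no read count, height or p-value for a peak, the depth is unknown and no replicate error can be given, so all values below describe this list and no test was made. Positions are on TAIR10, counted from 1. The gene table gives no strand, so 5′ and 3′ ends cannot be told apart, and the sides of a gene are called the lower and the higher side by coordinate.

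Of the 34 CPK genes, 11 carried a TGA1-GFP peak and 23 did not. That was 32.4% of the family, against 24.6% of all protein-coding genes (6747 of 27444). CPK genes are long, with a median of 3048 bp against 2078 bp for all protein-coding genes. Among the 9908 protein-coding genes no shorter than the shortest and no longer than the longest CPK gene (2418 to 5841 bp), 29.5% had a peak. None of the assigned midpoints lay deeper than 200 bp inside a CPK gene. With a zone from 1000 bp outside to 200 bp inside a gene end, shares were 32.4% of CPK and 22.8% of all protein-coding genes. The part of gene length in the share was not tested. The share of the family lay near these backgrounds, and it is not read as a property of the family. The 11 marked genes were CPK1, CPK5, CPK6 and CPK12 of subgroup I, CPK9 and CPK27 of subgroup II, CPK7, CPK13, CPK30 and CPK32 of subgroup III, and CPK28 of subgroup IV.

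**Figure D1:**
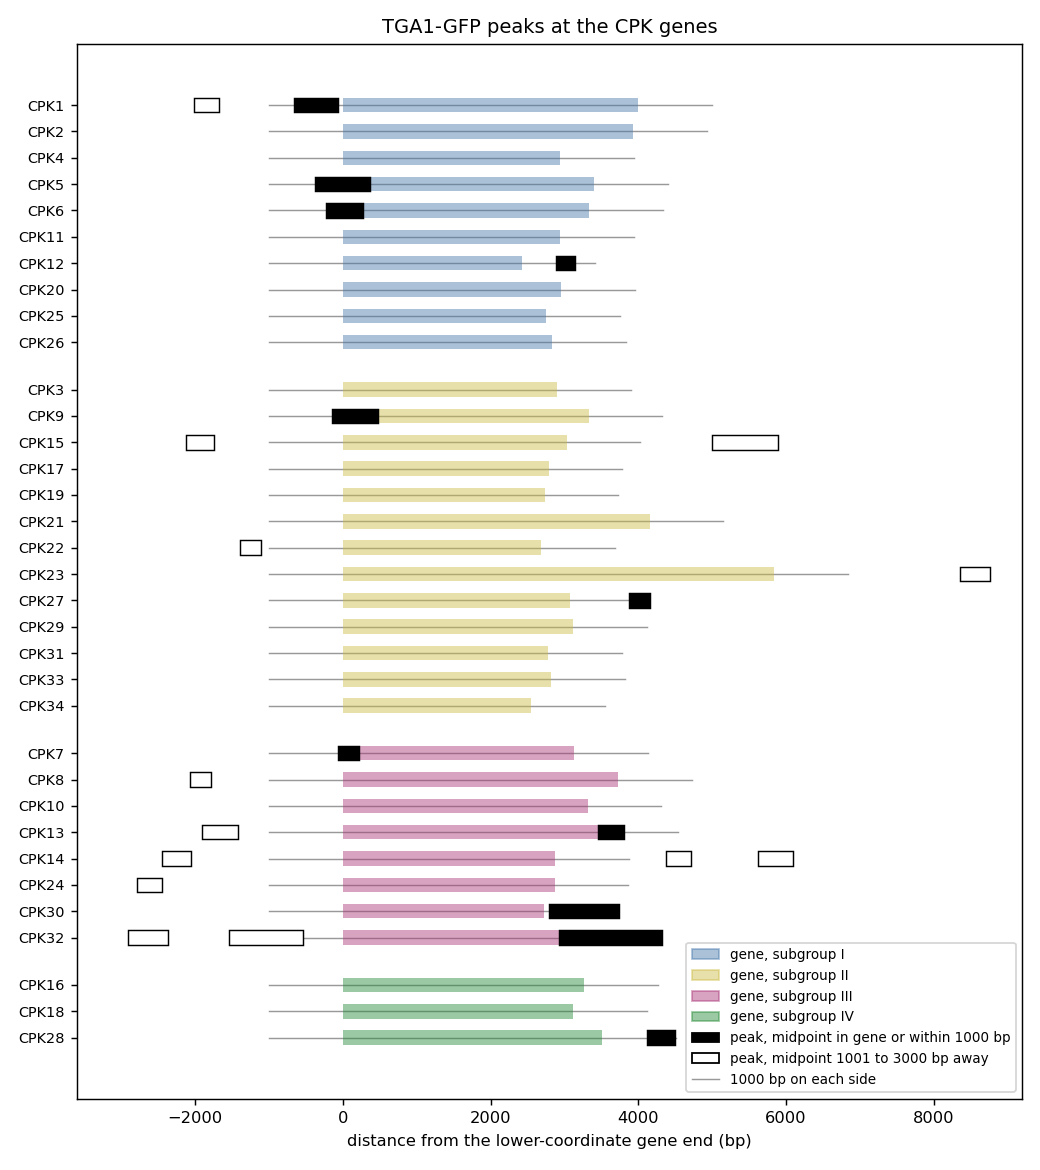
The 34 CPK genes are drawn to scale by subgroup, each from its lower-coordinate end (x axis, bp), with a thin line reaching 1000 bp to either side. Black bars are the 11 assigned peaks, open bars are peaks with their midpoint farther away but within 3000 bp; every black bar lies at or beyond a gene end and none sits in the middle of a gene.

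CPK30 and CPK32, which act in nitrate signalling, had the widest peaks of the family, and CPK10, the third of these kinases, had none. CPK32 (AT3G57530, chromosome 3, 21296457 to 21299704) phosphorylates NLP7 and also the ammonium transporter AMT1;1. Its peak was 1389 bp wide (chromosome 3, 21299387 to 21300775), wider than 96.5% of all peaks, and stood at place 4357 of the list. It overlapped 318 bp of the higher end of the gene, with its midpoint 377 bp outside. A further peak of 1009 bp (21294914 to 21295922, place 2479) lay on the lower side and its midpoint was 1039 bp from the gene, slightly over the 1000 bp limit, so that CPK32 had a peak of over 1000 bp on each side. Another of 541 bp lay 2638 bp away on the lower side and was assigned to SIP2. The gene has 3285 bp free of protein-coding genes on the lower side and 1692 bp on the higher side, and neither of the wider peaks was assigned to any other gene.

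CPK30 (AT1G74740, chromosome 1, 28079946 to 28082671) had 1 peak of 937 bp (28082743 to 28083679), wider than 89.4% of all peaks, at place 1804. It began beyond the higher end of the gene and did not overlap it, and its midpoint lay 540 bp outside, in a stretch of 3081 bp without a protein-coding gene. On the lower side CPK30 overlaps AT1G74730 by 42 bp and has no free flank. CPK10 (AT1G18890, chromosome 1, 6522764 to 6526075; CDPK1 in the gene table), which also acts in the response to drought, had its nearest midpoint 9291 bp away. Its lower end overlaps NRT1.9 (AT1G18880), a gene of the NRT1 transporter family, by 605 bp, so that it too has a free flank on the higher side only, of 2908 bp. No midpoint lay in that flank. CPK10 and CPK30 are each other's closest relatives, so the pair was marked on 1 member only.

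Subgroup III as a whole had 4 of 8 members with a peak, 50.0% against 24.6% of all protein-coding genes. CPK13 (AT3G51850), which acts on potassium channels of guard cells, had a 357 bp peak at place 2714 that overlapped 86 bp of the higher gene end, centred 93 bp outside. Another of 492 bp, at place 1982, was centred 1667 bp away on the lower side. CPK7 (AT5G12480), linked to the abundance of root aquaporins, had a 283 bp peak, at place 5088, centred 76 bp inside the lower gene end. CPK7 has only 64 bp of free sequence on that side, and the same peak was assigned to its neighbour AT5G12470, 141 bp away. CPK8 (AT5G19450), the closest relative of CPK7, which acts on the catalase CAT3, had no assigned peak. Its nearest midpoint was 1928 bp away, inside the gene AT5G19440. The nearest midpoints to CPK14 (AT2G41860) and CPK24 (AT2G31500), a pollen tube kinase, lay 1671 and 2618 bp away. Within 3000 bp CPK14 had 3 midpoints, all assigned to neighbouring genes (AT2G41870 and PGAZAT). CPK14 and CPK32 were the 2 members with 3 midpoints within that distance, 5.88% of the family against 4.96% of all protein-coding genes with at least 3. Any midpoint within 3000 bp was found for 17 of the 34 CPK genes, 50.0% against 38.9% of all protein-coding genes, and for 7 of the 8 genes of subgroup III, all but CPK10.

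Subgroup I had 4 of 10 members with a peak, against 24.6% of all protein-coding genes. Among these 4 were the immune kinases CPK5 and CPK6, whose peaks lay across a gene end. CPK5 (AT4G35310, chromosome 4, 16801605 to 16805005), which phosphorylates the oxidase RBOHD in the oxidative burst, had the peak that came first in the list within the family, at place 848. That peak was 753 bp wide (16801224 to 16801976), covered 372 bp of the gene and had its midpoint 5 bp outside the lower gene end. CPK6 (AT2G17290), the closest relative of CPK5, which also controls anion channels of guard cells, had a peak of 502 bp, at place 4976, centred 23 bp inside the lower gene end. CPK1 (AT5G04870), which acts in defence and in senescence, had a peak of 602 bp, at place 5653, that did not overlap the gene and was centred 363 bp outside the lower end. CPK12 (AT5G23580), a negative regulator of abscisic acid signalling, had the narrowest peak of the family, 251 bp at place 6709, only 1.35% of all peaks being narrower. Its midpoint lay 596 bp from CPK12 and 314 bp from the neighbour AT5G23590.

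The other 6 members of subgroup I had no midpoint within 3000 bp. Most protein-coding genes had none either, as 38.9% of all of them had a midpoint within that distance. CPK4 (AT4G09570) and CPK11 (AT1G35670), a pair of close relatives that promote abscisic acid signalling, were far from any peak, with the nearest midpoints 31193 and 16772 bp away. The distance for CPK4 was the largest in the family. CPK2 (AT3G10660) and CPK20 (AT2G38910), which act in pollen tubes, had theirs 17336 and 6254 bp away, and CPK25 (AT2G35890) and CPK26 (AT4G38230) 3414 and 21694 bp away.

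Subgroup II, the largest, had 2 of 13 members with a peak, 15.4% against 24.6% of all protein-coding genes. CPK9 (AT3G20410) had a 620 bp peak at place 6514 that covered 474 bp of the gene, the longest overlap in the family, with its midpoint 163 bp inside the lower gene end. CPK27 (AT4G04700), linked to salt tolerance, had a peak of 289 bp (chromosome 4, 2388911 to 2389199), at place 5781. It was centred 950 bp outside the higher end, the farthest among the assigned peaks. CPK27 belongs to a row of 5 CPK genes on chromosome 4 (CPK31, CPK27, CPK22, CPK21 and CPK23, 2381348 to 2408737). In these 27390 bp, which hold 1 other protein-coding gene, AT4G04730, this was the only peak midpoint. It lay in the gap of 2201 bp between CPK27 and CPK22, 1252 bp from CPK22 (AT4G04710). CPK21 (AT4G04720) and CPK23 (AT4G04740), which act on anion channels of the SLAC1 and SLAH3 type, had their nearest midpoints 4598 and 2714 bp away, and CPK31 (AT4G04695), linked to arsenite uptake, 4934 bp away.

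Among the remaining members of subgroup II, CPK15 (AT4G21940) had its nearest midpoint 1941 bp away and an 895 bp peak 2422 bp away, inside the peroxidase gene PRXR1. CPK3 (AT4G23650; CDPK6 in the gene table), a guard cell kinase that acts with CPK6, had its nearest midpoint 6288 bp away. For the pollen tube kinases CPK17 (AT5G12180) and CPK34 (AT5G19360) the distances were 17549 and 5752 bp. CPK33 (AT1G50700), which phosphorylates the flowering regulator FD, had its nearest midpoint 16103 bp away, and CPK19 (AT1G61950) and CPK29 (AT1G76040), the last of which acts on auxin transport proteins, 5344 and 5660 bp.

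In subgroup IV, 1 of 3 members had a peak, 33.3% against 24.6% of all protein-coding genes. CPK28 (AT5G66210), which limits immune signalling by controlling the turnover of the kinase BIK1, had a peak of 377 bp, at place 4356, centred 789 bp outside the higher end. That midpoint was nearer to both neighbours it was assigned to, AT5G66230 at 709 bp and AT5G66220 at 734 bp. CPK16 (AT2G17890) and CPK18 (AT4G36070) had their nearest midpoints 3301 and 4731 bp away. Groups of 3 to 13 genes are small, and the differences in share between subgroups were not tested.

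The 11 assigned peaks lay 1 to a gene, with midpoints from 163 bp inside a gene end to 950 bp outside, a range that the 1000 bp rule bounds on the outer side. Of the 11 midpoints, 3 were inside the gene, 8.82% of CPK genes against 6.69% of all protein-coding genes, and 8 outside. In all, 5 lay within 200 bp of a gene end on either side of it (CPK5, CPK6, CPK7, CPK9 and CPK13), 45.5% against 36.4% of the 8434 gene and peak pairs over all protein-coding genes. None lay deeper than 200 bp inside a CPK gene, whereas 12.4% of all pairs did. The other 6 lay 363 to 950 bp outside the gene. Of the 11 peaks, 6 overlapped the gene and 5 did not. Another gene shared 3 of them (CPK7, CPK12 and CPK28), which is 27.3%. Of the 6200 peaks assigned to any protein-coding gene, 34.5% were shared. That background counts each peak once and not once for each of its genes, so the 2 shares are not strictly alike. No CPK gene had more than 1 assigned peak, while 21.3% of all genes with a peak had at least 2. With 11 peaks these shares rest on a few genes each, and nothing particular to the family is read from them.

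Peak widths ran from 251 to 1389 bp with a median of 502 bp, against 428 bp for all assigned peaks. Of the 11, 6 were wider than the median peak of the list, and only the peak at CPK32 was 1000 bp or wider, as were 9.14% of all peaks. Their places ran from 848 to 6709 with a median of 4976, and 3 of them (CPK5, CPK30 and CPK13) stood in the earlier of 2 equal parts of the list. In that part, 8.82% of CPK genes had a peak against 13.2% of all protein-coding genes. The file does not say what its order stands for.

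**Figure D2:**
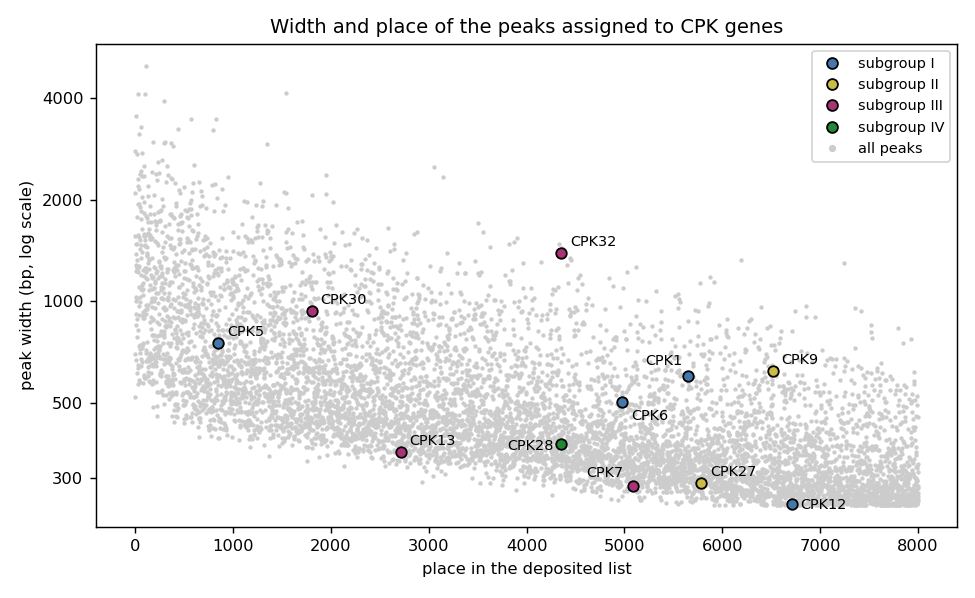
Each grey point is 1 of the 8002 peaks, by its place in the deposited list (x axis) and its width (y axis, bp, log scale); coloured points are the 11 peaks assigned to CPK genes, by subgroup. The peak at CPK32, 1389 bp wide at place 4357, lies near the upper edge of the peaks at its place, and that at CPK12, 251 bp wide, at the lower edge.

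CPK genes with a peak had more gene-free sequence around them. The 11 marked members had a median of 3081 bp without a protein-coding gene, both sides added, and the 23 others had 1069 bp. The same held for all protein-coding genes, with 2252 bp for those with a peak and 1708 bp for those without. CPK7, CPK12 and CPK9, with 111, 909 and 1098 bp, were marked and had short flanks, and CPK4, CPK11 and CPK31, with 5591, 7595 and 7128 bp, were unmarked and had long ones. The part of flank length in which genes were marked was not tested.

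In 9 pairs of close relatives, taken from the known tree of the family after the peaks had been seen, both genes had a peak in 1 pair (CPK5 and CPK6), 1 gene had a peak in 5 pairs (CPK1 of CPK1 and CPK2, CPK7 of CPK7 and CPK8, CPK9 of CPK9 and CPK33, CPK30 of CPK10 and CPK30, CPK32 of CPK14 and CPK32), and neither gene did in 3 (CPK4 and CPK11, CPK16 and CPK18, CPK17 and CPK34). With 32.4% of the family marked, these counts are given as a description only, and no pattern among relatives is read from them.

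Genes of proteins that CPK kinases are known to act on, or that stand beside them in nitrate and calcium signalling, carried peaks at 16 of 21 members, 76.2%, against 24.6% of all protein-coding genes. These genes were long, with a median of 3569 bp, and had long flanks too, a median of 3724 bp. Among protein-coding genes as long as the CPK genes, 29.5% had a peak. The list was written with earlier results of these data known, which already showed peaks at several of them, so its share is not independent evidence. On the nitrate branch, NLP7 (AT4G24020), the target of CPK10, CPK30 and CPK32, had a 1697 bp peak at place 347, and its relatives NLP6 (AT1G64530) and NLP2 (AT4G35270) had peaks of 878 and 1574 bp. The one at NLP2 had its midpoint inside the gene and stood at place 31. The nitrate transporter and sensor NRT1.1 (AT1G12110) had 2 peaks, the wider 440 bp, and the calcium channel gene CNGC15 (AT2G28260) had 1 of 323 bp. The ammonium transporter gene AMT1;1 (AT4G13510), whose product is a target of CPK32, had 2, the wider 1560 bp with its midpoint inside the gene.

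The oxidase genes RBOHD (AT5G47910) and RBOHF (AT1G64060) had 1 peak of 902 bp and 4 peaks of up to 455 bp, and BIK1 (AT2G39660) had 1 of 274 bp. Of the anion channel genes, SLAH2 (AT4G27970) and SLAH3 (AT5G24030) had peaks of 471 and 434 bp, and SLAC1 (AT1G12480), the guard cell channel, had its nearest midpoint 6238 bp away. The potassium channel gene AKT1 (AT2G26650), which serves potassium uptake in roots, had 2 peaks, the wider 623 bp. KAT1 (AT5G46240) and KAT2 (AT4G18290) of guard cells and SPIK (AT2G25600) of pollen had none, with nearest midpoints 16348, 14073 and 7449 bp away. The transcription factor genes ABF1 (AT1G49720), FD (AT4G35900) and ORE1 (AT5G39610) had 2, 2 and 3 peaks, the widest 489, 686 and 414 bp. CAT3 (AT1G20620) had 4 peaks of up to 457 bp. For ABF4 (AT3G19290) the nearest midpoint was 8296 bp away.

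Related kinase genes were marked at 7 of 12, 58.3%, against 24.6% of all protein-coding genes. Their median length was 3527 bp and their median gene-free flank 3051.5 bp, against 2078 and 1854 bp for all protein-coding genes. This list too was chosen with earlier results of these data known. Of the 8 CRK genes, whose products resemble CPK kinases but have degenerate EF hands, 4 carried a peak: CRK2 (AT3G19100), CRK5 (AT3G50530), CRK7 (AT3G56760) and CRK8 (AT1G49580), with widths of 439, 339, 384 and 298 bp. Of the 4 genes of phosphoenolpyruvate carboxylase kinases and their relatives, 3 did: PPCK1 (AT1G08650), with 2515 bp at place 330, PPCK2 (AT3G04530), with 1087 bp, and PEPKR1 (AT1G12580), with 629 bp. The peak at PPCK1 was wider than that at any CPK gene. Beside the 11 of 34 CPK genes, peaks were assigned to 19 of 26 CIPK genes, kinases that calcium reaches through CBL sensor proteins, and to 3 of 10 CBL genes, shares of 73.1% and 30.0%. Among kinases of the mitogen-activated cascade they were assigned to 11 of 19 MPK genes and 2 of 10 MKK genes, shares of 57.9% and 20.0%. The shares of the CBL and MKK genes lie near the 24.6% of all protein-coding genes. The CIPK genes had a median gene-free flank of 3871 bp and the CPK genes one of 1707 bp. None of these differences in share was tested.

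**Figure D3:**
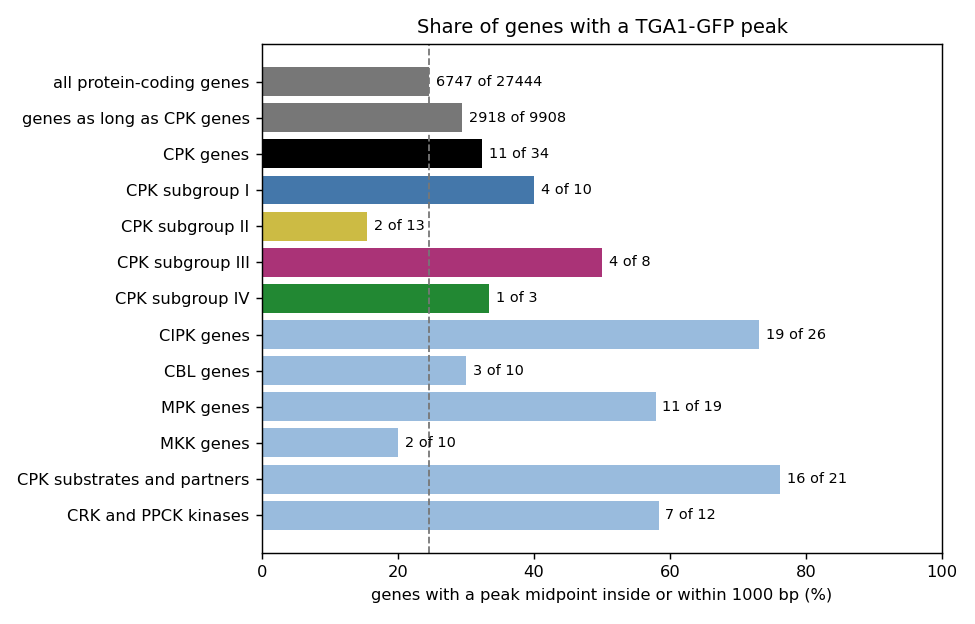
Bars give the percentage of genes with a peak midpoint inside the gene or within 1000 bp, with the counts beside them; the dashed line marks the 24.6% of all protein-coding genes. CPK genes (11 of 34) lie close to the genes of like length (29.5%), and their substrates and partners (16 of 21) and the CIPK genes (19 of 26) have the longest bars.

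The number of marked CPK genes depended on the distance allowed. Within 500 bp of the gene 7 members had a peak, 20.6% against 19.1% of all protein-coding genes; CPK12, CPK27, CPK28 and CPK30 dropped out. Within 2000 bp it was 15, 44.1% against 31.8%, with CPK8, CPK14, CPK15 and CPK22 added. With each peak given only to its nearest gene, CPK12 and CPK28 dropped out and 9 members remained, 26.5% against 18.6%. Any overlap of a peak with the gene or its 1000 bp flanks gave the same 11 members, 32.4% against 26.7%, and so did a zone from 1000 bp outside to 200 bp inside either gene end (22.8% of all protein-coding genes). With the wider of 2 equal parts of the peaks 6 members remained, 17.6% against 13.0%.

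**Figure D4:**
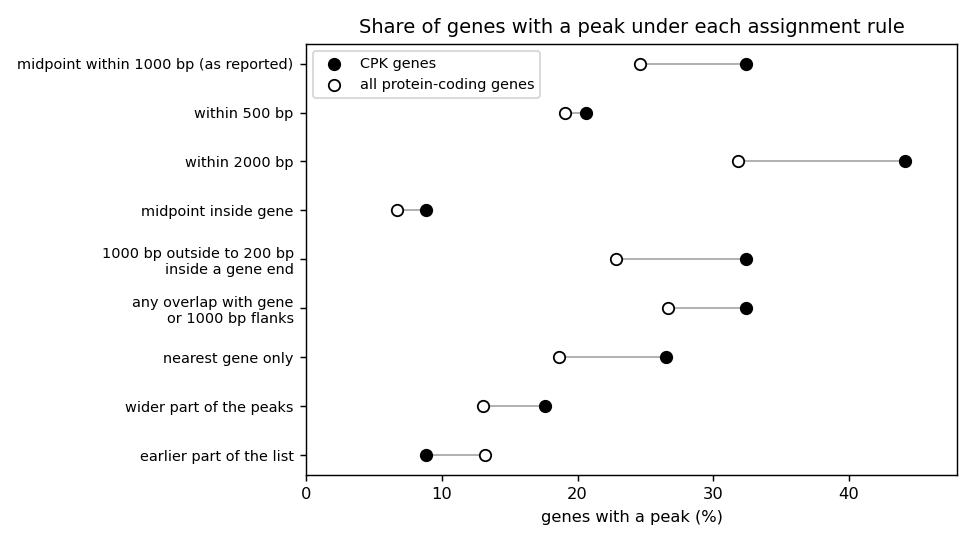
Points give the percentage of genes with a peak (x axis) under each assignment rule (y axis), filled for the 34 CPK genes and open for all protein-coding genes. The filled point lies 1.5 to 12.3 percentage points to the right of the open one under every rule but the last, the earlier part of the list, where it lies to the left.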

How the data were processed

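ChIP-seq libraries were made from roots of TGA1-GFP plants with a GFP antibody and with IgG, 1 library each. Per the labels' protocols, roots were fixed with formaldehyde and chromatin from sonicated nuclei was recovered with GFP antibodies. The tools were Bowtie2 and MACS2 and the build was TAIR10, per the submitters' processing notes. No source used here gives versions, thresholds, filters or the control in peak calling. The deposited file was 1 peak list with 3 columns, chromosome, start and end, without scores, heights or p-values. Starts were read by the BED convention; if they already counted from 1, each printed start is off by 1 base.

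Genes came from a RefSeq table of TAIR10.1, whose nuclear coordinates were checked against the peaks: 24.4 to 27.8% of midpoints per chromosome lay inside protein-coding genes, and 60.5 to 64.4% after a shift of 5000 bp. All 34 CPK numbers were found, 29 as the symbol and 5 as a synonym. In the other lists, genes not paired with the name in the table carry the name of the list. A peak shared by neighbouring genes was counted for each. The rule for named genes took all members with a peak, the 3 nitrate-linked kinases, members with a midpoint within 3000 bp, neighbours sharing a peak and marked genes of the other lists. Naming members with no midpoint within 3000 bp, the pairs of relatives and the share among genes of like length were added after the data were seen. The members and lists were chosen with earlier results of these data known. Planned descriptions of promoter motifs and proteins were not run, as no sequence was used here. Code was tested on simulated data. Python 3.11.15, pandas 2.3.3, numpy 2.4.6 and matplotlib 3.10.9 were used.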

Additional observations from a re-analysis of the deposited data

How the results depend on the processing

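Of 40 values recomputed under 8 alternatives, 25 stayed within 1.5 times the reported value. With midpoints inside the gene only, the counts were 3 CPK genes, 0 of CPK10, CPK30 and CPK32, 8 substrates and partners, 0 related kinases and 6.69% of all protein-coding genes. Within 500 bp they were 7 CPK genes and 1 of the nitrate-linked kinases, CPK32, with 19.1% of all protein-coding genes. Within 2000 bp, 11 of 12 related kinases had a peak, with 31.8% of all protein-coding genes. With the wider of 2 equal parts of the peaks there were 6 CPK genes, 4 related kinases and 13.0% of all genes. With the earlier part of the list there were 3 CPK genes, 1 nitrate-linked kinase, CPK30, 2 related kinases and 13.2% of all genes. Each of these rules admits fewer or more peaks by its construction. Zones at the gene ends and any overlap of at least 1 bp with the gene or its 1000 bp flanks each gave the same 11 CPK genes. Without read counts, peak strength and depth could not be compared, and with 1 library for each antibody no replicate could be left out.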
